A study of Mus musculus with 10 samples.

Results

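Genes of the cell division cycle were measured in perfused whole brains of mice whose back skin had been treated with Aldara cream or with control cream. The genes form a list of 60, which holds 27 genes of the G1/S transition and DNA replication, 31 genes of G2 and mitosis, and 2 inhibitors of cyclin-dependent kinases. They were looked up by symbol among the probesets of the array, and each gene was represented by the probeset of its own with the highest mean over the 10 arrays. This gave values for 58 of the 60 genes, out of 19938 genes with a probeset of their own. Of the other two, Cdkn1a shared its probeset with 4930567H12Rik, and Ccnb1 was not analysed here because the annotation used gave it no probeset. The list was drawn up with earlier results of these data known.

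The control group held 5 brains and the Aldara group 5 brains, each from a different mouse and measured on its own Affymetrix Mouse Gene array. All mice were C57BL/6 females aged 6 to 8 weeks. Aldara cream contains imiquimod, a ligand of the RNA sensor TLR7, and the control mice received an aqueous cream. The paper cites reports that the Aldara vehicle holds another active component, isostearic acid, which the aqueous cream lacks. The groups therefore differ in both. The dose was 80 mg, put on shaved back skin at intervals of 24 h until 5 applications had been made, and brains were collected a further 24 h later. Values are log2 expression values that the authors had normalised with RMA, so a difference of 1 is a doubling. Array medians over the tested probesets were 8.10 to 8.14 in the control group and 8.16 to 8.19 in the Aldara group, and no pair of arrays was identical. Markers of neurons, the main cells of the labelled tissue, had mean log2 values of 11.85 to 11.90 in control mice and 11.73 to 11.76 in Aldara-treated mice. Whether a probeset stood above background was not known, no scan date was given in the sources used here, and the number of arrays limits the precision.

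A dividing cell passes from G1 into S phase, copies its DNA, and then separates the copies in mitosis. D-type and E-type cyclins with Cdk4 and Cdk2 release the E2F transcription factors, which switch on the genes for the replicative helicase, the sliding clamp and deoxynucleotide synthesis. Later, A-type and B-type cyclins with Cdk1, the transcription factor FoxM1 and the DREAM and B-MYB complexes govern the genes of the spindle, the kinetochore and cytokinesis. Most neurons of the adult brain have left the cycle, while microglia, oligodendrocyte progenitors, neural progenitors, endothelial cells and infiltrating leukocytes can divide.

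Promoters of cell cycle genes can carry short sequence motifs, though not every member has one. The 5 promoters shown belong to the members with the largest difference in their role among those with a promoter in the table. Each runs from 250 bases before to 50 after the annotated start, taken from RefSeq on build GRCm38.p6 and written 5′ to 3′ on the gene's strand. Capitals mark the letters of E2F motifs (TTTCGCGC, TTTGGCGC or TTTCCCGC), of the cell cycle genes homology region, CHR (TTTGAA or TTCGAA), and of the CCAAT box (CCAAT), each on either strand. In the Mcm6 promoter the first 2 E2F matches lie on opposite strands and overlap. Mcm6 encodes a helicase subunit, at chr1:128359656-128359955 on the minus strand. Rrm2 encodes the small subunit of ribonucleotide reductase, at chr12:24708004-24708303 on the plus strand. Cdk2 lies at chr10:128705002-128705301 on the minus strand and Cdk1 at chr10:69352863-69353162 on the minus strand. Top2a encodes DNA topoisomerase II alpha, at chr11:99024140-99024439 on the minus strand.
Mcm6: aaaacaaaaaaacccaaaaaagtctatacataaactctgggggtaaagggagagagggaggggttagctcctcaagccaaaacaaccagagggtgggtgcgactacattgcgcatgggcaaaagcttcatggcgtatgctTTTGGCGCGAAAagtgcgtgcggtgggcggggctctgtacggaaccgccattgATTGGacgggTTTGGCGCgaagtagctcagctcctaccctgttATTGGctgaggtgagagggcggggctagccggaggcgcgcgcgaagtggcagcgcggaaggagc
Rrm2: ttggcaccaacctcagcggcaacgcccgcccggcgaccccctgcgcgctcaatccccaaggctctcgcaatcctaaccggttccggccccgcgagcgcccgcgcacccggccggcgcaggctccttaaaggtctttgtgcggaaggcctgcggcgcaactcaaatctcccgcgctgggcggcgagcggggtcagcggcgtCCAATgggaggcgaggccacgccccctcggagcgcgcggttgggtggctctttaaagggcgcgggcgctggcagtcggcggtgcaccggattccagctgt
Cdk2: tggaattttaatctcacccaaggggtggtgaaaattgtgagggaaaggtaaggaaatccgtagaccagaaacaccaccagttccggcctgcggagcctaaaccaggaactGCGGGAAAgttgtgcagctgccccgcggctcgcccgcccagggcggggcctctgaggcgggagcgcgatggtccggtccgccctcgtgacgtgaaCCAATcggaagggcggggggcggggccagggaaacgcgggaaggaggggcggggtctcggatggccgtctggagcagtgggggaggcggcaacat
Cdk1: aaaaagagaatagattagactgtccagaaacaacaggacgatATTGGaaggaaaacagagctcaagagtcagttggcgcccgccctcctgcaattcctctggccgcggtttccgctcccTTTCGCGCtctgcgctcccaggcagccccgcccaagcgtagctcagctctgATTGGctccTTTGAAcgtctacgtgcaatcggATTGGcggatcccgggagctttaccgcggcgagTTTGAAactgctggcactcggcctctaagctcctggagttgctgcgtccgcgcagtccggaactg
Top2a: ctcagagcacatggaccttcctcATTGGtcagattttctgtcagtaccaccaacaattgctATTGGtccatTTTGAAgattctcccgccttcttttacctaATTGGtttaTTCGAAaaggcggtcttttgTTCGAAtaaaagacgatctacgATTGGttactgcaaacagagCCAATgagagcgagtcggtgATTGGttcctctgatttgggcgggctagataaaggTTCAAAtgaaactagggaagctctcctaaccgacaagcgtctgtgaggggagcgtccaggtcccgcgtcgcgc

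The E2F letters occurred 3 times in the Mcm6 promoter, the last from position -47 relative to the start, and 1 time each in those of Cdk2 and Cdk1. The CHR letters occurred 2 times in the Cdk1 promoter, from positions -71 and -15, and 4 times in that of Top2a, the last from position -23. The Rrm2 promoter held a CCAAT box and none of the other letters. The table held 52 promoters of 48 members. The CHR letters were present in 21 of 26 promoters of 25 G2/M members, or 80.8%, in 4 of 23 promoters of 21 G1/S and replication members, or 17.4%, and in 19.2% of all 32851 promoters. The E2F letters were present in 1 of 26 G2/M promoters and 8 of 23 G1/S promoters, or 34.8%, against 1.84% of all. A CCAAT box stood in 22 of 26 and 15 of 23, against 37.4% of all. Members with and without an increase held the CHR letters, which were also found at Cdc20, Ttk and Anln, which did not pass the test, and at Cdc25b, which was lower, and were not found at Nusap1, which rose. A match of letters is a description and shows no binding.

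Aldara treatment went with higher levels of most cell cycle genes in the brain, and genes of mitosis showed the largest increases. Of the 58 measured genes, 45 were higher and 1 was lower at an adjusted p under 0.05 from limma, with Benjamini-Hochberg adjustment over all 23410 probesets tested, where 12.4% were higher, 21% lower and 33.4% called in either direction. The proliferation marker Mki67 and the topoisomerase gene Top2a were 3.06-fold and 3.08-fold higher. For 43 members every Aldara-treated mouse lay above every control mouse, which held for 10.5% of all probesets tested. The median log2 difference of the members was 0.37, against -0.05 over all 19938 genes. A higher level in whole tissue can come from more cells that express a gene or from more RNA per cell, and these cannot be told apart here.

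**Figure D1:**
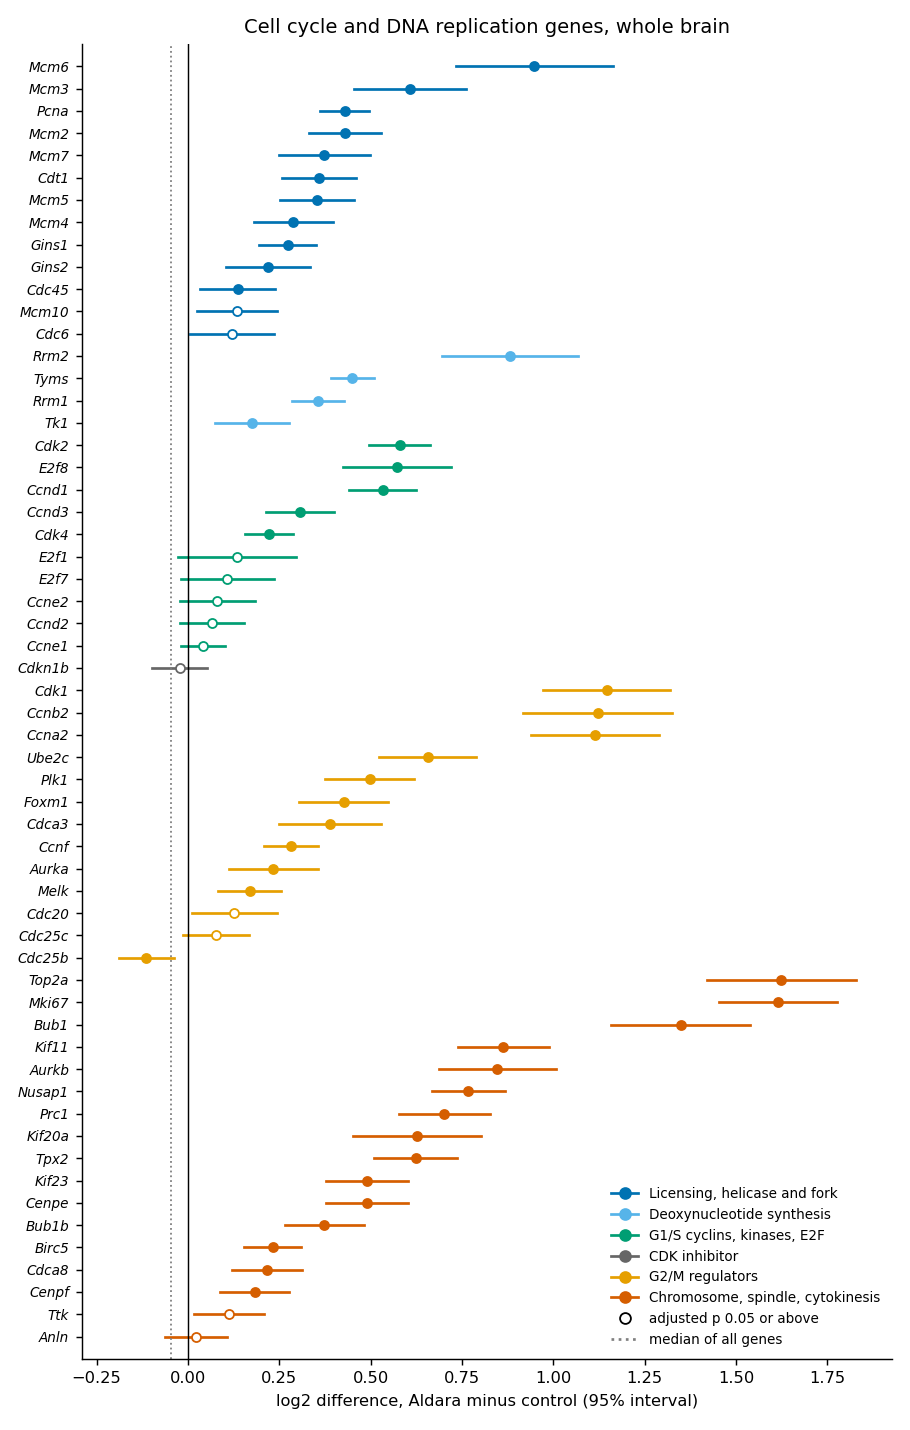
Log2 difference, Aldara minus control, of each of 58 cell cycle genes (points, with 95% intervals as bars), grouped by role in colour and ordered by size within a role. Open points did not pass the test, the dotted line is the median of all genes at -0.05, and the differences run from -0.11 for Cdc25b to 1.62 for Top2a.

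Genes that load and build the replication fork were higher, in most cases by less than 1.5-fold. Of 13 such genes 11 were higher, against 12.4% of all probesets tested, and the other 2 had differences above 0. The median log2 difference was 0.35, and 2 of the 13 were at least 1.5-fold higher, against 3.05% of all probesets. Mcm6, a subunit of the MCM helicase ring, had log2 values of 7.31, 7.37, 7.45, 7.26 and 7.29 in control mice 1 to 5 and of 8.17, 8.11, 8.34, 8.11 and 8.69 in Aldara-treated mice 1 to 5. The groups did not overlap, and Aldara replicate 5 was the highest. Its log2 difference was 0.95 (standard error 0.10, adjusted p = 1.8e-05 from limma), or 1.93-fold (95% interval 1.66 to 2.24). Mcm3, another subunit, had 6.46, 6.36, 6.50, 6.35 and 6.26 in control mice and 7.12, 6.81, 7.18, 6.90 and 6.96 in Aldara-treated mice, a log2 difference of 0.61 (standard error 0.07). For Mcm2, values of 8.07, 7.85, 8.07, 8.09 and 7.98 stood against 8.49, 8.45, 8.45, 8.39 and 8.44, a log2 difference of 0.43 (standard error 0.04). The Aldara-treated mice were close to one another for Mcm2 and spread more for Mcm3, without overlap with control mice for either.

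The other subunits of the ring, Mcm7, Mcm5 and Mcm4, had log2 differences of 0.37, 0.35 and 0.29. The 6 subunits did not rise equally. In exact two-sided permutation tests of the within-array difference between subunits, adjusted over 18 pairs (15 of the ring and 3 of the D-type cyclins), the increase of Mcm6 exceeded that of each of the other 5 (adjusted p = 0.018 for each), by 0.34 over Mcm3 (standard error 0.12) to 0.66 over Mcm4 (standard error 0.08). Mcm3 exceeded Mcm4, Mcm5 and Mcm7 (adjusted p = 0.018, 0.029 and 0.039), and did not pass against Mcm2 (adjusted p = 0.088). Probesets need not respond alike to the same change in RNA, and this was not tested. The smallest p that these permutations can give is 0.0079.

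Pcna encodes the sliding clamp that holds DNA polymerase on its template. It had log2 values of 10.20, 10.13, 10.18, 10.12 and 10.11 in control mice and of 10.63, 10.60, 10.56, 10.52 and 10.57 in Aldara-treated mice, a log2 difference of 0.43 (standard error 0.03, adjusted p = 6.8e-07 from limma). The spread within either group was small beside the difference, and the other probeset of Pcna also differed by 0.43. Cdt1, which loads the helicase, had a log2 difference of 0.36, and the helicase cofactors Gins1 and Gins2 had 0.27 and 0.22. Cdc45, another cofactor, was higher by 0.14 (adjusted p = 0.043), a call that was lost under 7 of the other settings and when control replicate 2, 3, 4 or 5 or Aldara replicate 1 or 3 was left out. Mcm10 and the loader gene Cdc6 failed to pass, at 0.13 (95% interval 0.03 to 0.24) and 0.12 (95% interval 0.01 to 0.23).

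All 4 genes of deoxynucleotide synthesis were higher, against 12.4% of all probesets tested, and their median log2 difference was 0.40. Rrm2, the subunit of ribonucleotide reductase whose level rises in S phase, had log2 values of 7.01, 7.02, 6.86, 7.03 and 7.04 in control mice and of 7.85, 7.89, 8.20, 7.82 and 7.62 in Aldara-treated mice. Its log2 difference was 0.88 (standard error 0.08, adjusted p = 9e-06 from limma), and Aldara replicate 3 was the highest. Rrm1, the large subunit, had 9.07, 9.07, 9.11, 9.04 and 9.07 against 9.38, 9.36, 9.49, 9.49 and 9.41, a log2 difference of 0.36 (standard error 0.03). Tyms, the thymidylate synthase, had 7.27, 7.28, 7.31, 7.31 and 7.38 against 7.76, 7.76, 7.76, 7.74 and 7.78, a log2 difference of 0.45 (standard error 0.03). The 5 Aldara-treated mice differed by at most 0.04 for Tyms. Tk1, the thymidine kinase of dividing cells, had 7.70, 7.60, 7.62, 7.66 and 7.42 against 7.81, 7.77, 7.75, 7.79 and 7.75, and its log2 difference of 0.18 (standard error 0.05) was the smallest of these 4 genes. The dimmer probeset of Tk1 differed by 0.20 and did not pass (adjusted p = 0.17 from limma).

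Cyclins, kinases and E2F factors of the G1/S transition were divided, with 5 of 10 higher, against 12.4% of all probesets tested. The other 5 did not pass, at differences above 0, and the median log2 difference of the 10 was 0.18. Cdk2, the kinase partner of E-type and A-type cyclins, had log2 values of 6.96, 6.98, 6.93, 7.03 and 6.89 in control mice and of 7.55, 7.56, 7.62, 7.43 and 7.52 in Aldara-treated mice. Its log2 difference was 0.58 (standard error 0.04, adjusted p = 3.3e-07 from limma). Cdk4, the partner of D-type cyclins, had 11.16, 11.17, 11.21, 11.17 and 11.23 against 11.41, 11.39, 11.50, 11.38 and 11.38, a log2 difference of 0.22 (standard error 0.03). Neither kinase gene overlapped between the groups. E2f8, a repressor among the E2F factors that rises late in S phase, had 6.15, 6.37, 6.27, 6.36 and 6.14 against 6.94, 6.80, 6.96, 6.82 and 6.63, a log2 difference of 0.57 (standard error 0.07). The activator E2f1 and the repressor E2f7 did not pass, at 0.13 (95% interval -0.03 to 0.30) and 0.11 (95% interval -0.02 to 0.24), nor did the E-type cyclins Ccne1 at 0.04 and Ccne2 at 0.08.

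The D-type cyclins, which couple growth signals to Cdk4 and Cdk6, changed unequally. Ccnd1 had log2 values of 9.91, 10.0003, 9.94, 10.01 and 9.997 in control mice and of 10.59, 10.54, 10.49, 10.36 and 10.54 in Aldara-treated mice, a log2 difference of 0.53 (standard error 0.04, adjusted p = 1.6e-06 from limma). Ccnd3 had 8.70, 8.82, 8.72, 8.74 and 8.64 against 9.08, 8.996, 8.92, 9.09 and 9.07, a log2 difference of 0.31 (standard error 0.04). Both genes were higher in each of the 5 Aldara-treated mice than in any control mouse. Ccnd2 had 9.80, 9.82, 9.84, 9.79 and 9.78 against 9.91, 9.92, 9.72, 9.87 and 9.94, so that the groups overlapped through Aldara replicate 3 alone. Its log2 difference of 0.07 (95% interval -0.02 to 0.15) did not pass, and passed at 0.10 without Aldara replicate 3 (adjusted p = 0.017 from limma). The increase of Ccnd1 exceeded that of Ccnd2 by 0.47 (standard error 0.05, adjusted p = 0.018) and that of Ccnd3 by 0.23 (standard error 0.06, adjusted p = 0.029), and Ccnd3 exceeded Ccnd2 by 0.24 (standard error 0.04, adjusted p = 0.018; exact permutation tests adjusted over the same 18 pairs).

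Regulators of G2 and mitosis were mostly higher. Of 13 measured, 10 were higher and 1 was lower, against 12.4% and 21% of all probesets tested. Their median log2 difference was 0.39. Cdk1, the kinase that drives entry into mitosis, had log2 values of 7.07, 6.89, 7.09, 6.89 and 6.67 in control mice and of 8.17, 8.16, 7.90, 8.11 and 8.01 in Aldara-treated mice. The groups lay well apart, and the log2 difference was 1.15 (standard error 0.08, adjusted p = 5.2e-07 from limma), or 2.21-fold (95% interval 1.96 to 2.50). Its cyclin partners Ccna2 and Ccnb2 rose by similar amounts, and Ccnb1 was not analysed. Ccna2, cyclin A2, had 7.07, 7.05, 7.17, 6.997 and 6.98 against 8.30, 8.10, 8.40, 8.16 and 7.89, a log2 difference of 1.11 (standard error 0.08). Ccnb2, cyclin B2, had 7.99, 7.89, 8.03, 7.73 and 7.91 against 8.96, 9.02, 9.29, 9.17 and 8.72, a log2 difference of 1.12 (standard error 0.09). For both cyclins Aldara replicate 3 was the highest and Aldara replicate 5 the lowest of the treated mice.

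Ube2c, the ubiquitin-conjugating enzyme of the anaphase-promoting complex, had 7.09, 7.15, 6.999, 7.12 and 6.97 in control mice and 7.82, 7.58, 7.80, 7.84 and 7.57 in Aldara-treated mice, a log2 difference of 0.66 (standard error 0.06, adjusted p = 6.6e-06 from limma). The mitotic kinase Plk1 had a log2 difference of 0.50 and the transcription factor Foxm1 one of 0.43. Smaller increases were those of Cdca3 at 0.39, of Ccnf at 0.28, of the spindle pole kinase Aurka at 0.23 and of Melk at 0.17, and for Aurka and Melk the groups overlapped. Cdc20, an activator of the anaphase-promoting complex, and the phosphatase Cdc25c did not pass, at 0.13 (95% interval 0.01 to 0.24) and 0.08 (95% interval -0.01 to 0.17). The phosphatase Cdc25b, which activates cyclin-dependent kinases, was lower, with log2 values of 8.01, 8.004, 8.11, 8.08 and 8.13 in control mice and of 7.91, 7.98, 7.98, 8.0 and 7.89 in Aldara-treated mice. Its log2 difference was -0.11 (standard error 0.03, adjusted p = 0.024 from limma), and its groups did not overlap, as for 15.3% of all probesets in this direction. The call was lost when the differences were shifted to a median of 0, against a 1.1-fold change, and on leaving out any 1 of control replicates 3 and 5 and Aldara replicates 1 and 5.

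Genes of chromosomes, kinetochore, spindle and cytokinesis, several of them kinases, showed the largest increases of the list. Of 17 measured, 15 were higher, against 12.4% of all probesets tested, and the other 2 had differences above 0. The median log2 difference was 0.62, and 9 of the 17 were at least 1.5-fold higher, which held for 3.05% of all probesets. Mki67 encodes Ki-67, a protein that coats mitotic chromosomes and marks cycling cells. It had log2 values of 6.74, 6.95, 6.85, 6.91 and 6.98 in control mice and of 8.62, 8.37, 8.62, 8.61 and 8.27 in Aldara-treated mice, a log2 difference of 1.61 (standard error 0.07, adjusted p = 1.2e-08 from limma), or 3.06-fold (95% interval 2.74 to 3.42). Top2a, which untangles sister chromatids, had 6.59, 6.33, 6.34, 6.63 and 6.25 against 7.97, 7.92, 8.30, 8.17 and 7.89, a log2 difference of 1.62 (standard error 0.09), or 3.08-fold (95% interval 2.68 to 3.55). For both genes the lowest Aldara-treated mouse stood more than 1 log2 unit above the highest control mouse. Further probesets of Top2a disagreed with it. A dim one, at a mean of 4.91, differed by 0.02, and both of those shared with Hibadh differed by 0.04 and 0.06, none of them past the test.

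Bub1, a kinase of the spindle checkpoint, had log2 values of 5.76, 5.89, 5.74, 5.93 and 5.79 in control mice and of 7.24, 6.97, 7.28, 7.43 and 6.93 in Aldara-treated mice, a log2 difference of 1.35 (standard error 0.09, adjusted p = 2.9e-07 from limma). Nusap1, which bundles spindle microtubules, had 5.93, 5.87, 5.94, 6.04 and 5.87 against 6.67, 6.67, 6.77, 6.79 and 6.59, a log2 difference of 0.77 (standard error 0.05). Aldara replicate 5 was the lowest of the treated mice for both genes, yet above all control mice. Among motor proteins, Kif11, which pushes the spindle poles apart, had a log2 difference of 0.86, Kif20a one of 0.63 and Kif23 one of 0.49, the last 2 acting in cytokinesis with Prc1 at 0.70. Of the chromosomal passenger complex, the kinase Aurkb had 0.85, Birc5 (survivin) 0.23 and Cdca8 (borealin) 0.22. The spindle factor Tpx2 had 0.62, the kinetochore motor Cenpe 0.49, the checkpoint kinase Bub1b 0.37 and Cenpf 0.18. The checkpoint kinase Ttk and Anln, an actin-binding protein of the cleavage furrow, did not pass, at 0.11 (95% interval 0.02 to 0.21) and 0.02 (95% interval -0.06 to 0.11).

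**Figure D2:**
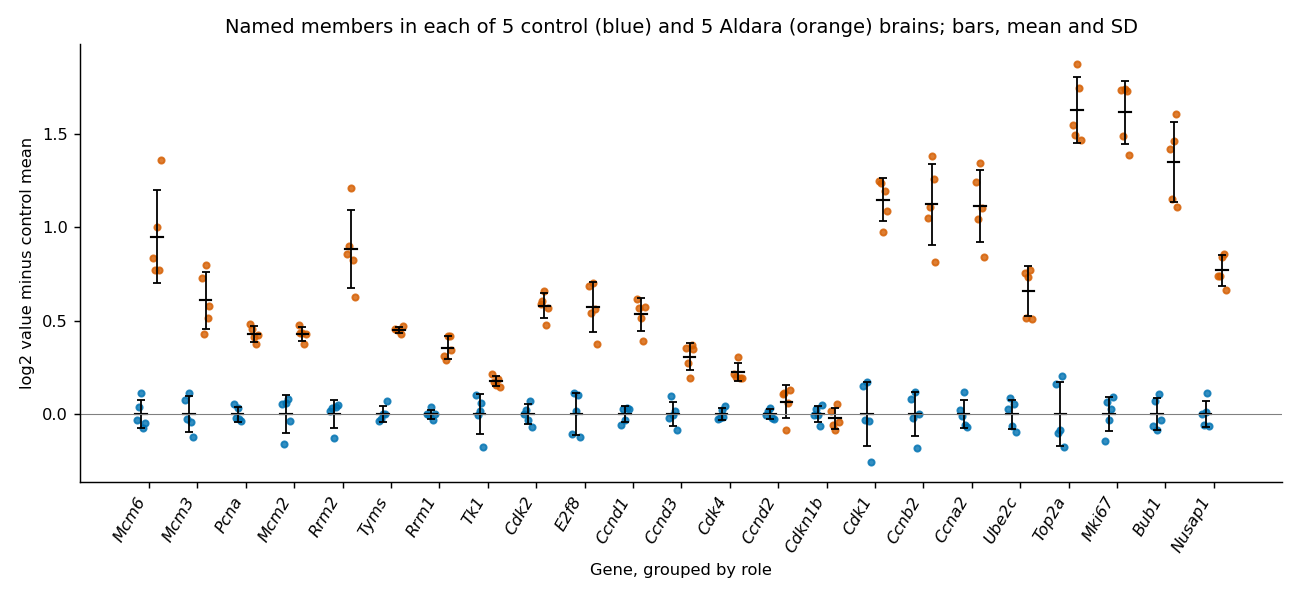
Log2 value minus the control mean of 23 named genes for the 5 control mice in blue and the 5 Aldara-treated mice in orange, with the mean and SD of each group as black lines and bars. The orange points lie above the blue points for all genes shown except Ccnd2 and Cdkn1b, and the gap is widest for Top2a and Mki67.

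G2/M genes were raised more than G1/S and replication genes at the median. The median log2 difference was 0.49 over 30 measured G2/M genes and 0.31 over 27 G1/S and replication genes. No test was made over the members. Counts of higher genes were closer, at 25 of 30 with 1 lower and 20 of 27 with the other 7 above 0. Over all probesets 12.4% were higher and 21% lower. At least 1.5-fold higher were 13 of 30 and 3 of 27, against 3.05% of all probesets. Every Aldara-treated mouse lay above every control mouse for 24 of the G2/M genes and 19 of the G1/S genes, against 10.5% of all probesets. The 24 include Cdc20, which did not pass the test. In each Aldara-treated mouse the G2/M median lay above the G1/S median. The G2/M medians relative to the control mean were 0.47, 0.45, 0.58, 0.49 and 0.38 in Aldara replicates 1 to 5, and the G1/S medians were 0.31, 0.28, 0.34, 0.26 and 0.34. Aldara replicate 5 had the lowest G2/M median and the highest G1/S median, so that its medians differed by 0.03, where those of Aldara replicates 1 to 4 differed by 0.16 to 0.24. With means in place of medians, its G1/S value of 0.34 lay below those of Aldara replicates 1 and 3, at 0.36 and 0.38. Its G2/M and G1/S means differed by 0.11, where those of Aldara replicates 1 to 4 differed by 0.22 to 0.36. Over the 45 members that were higher, Aldara replicate 3 had the highest value for 17 and Aldara replicate 4 for 15, and replicates 1, 5 and 2 for 8, 3 and 2. In control mice the medians lay between -0.03 and 0.03 for either class. The G2/M probesets were dimmer, with a median of the mean log2 values of 7.13 against 7.84 for G1/S and 8.12 for all genes, and the part of this in the difference between the classes was not tested.

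**Figure D3:**
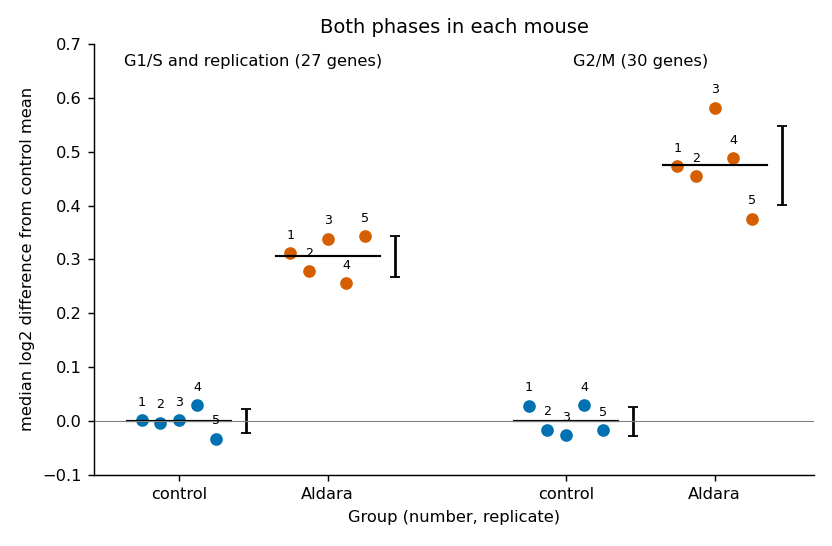
Median log2 difference from the control mean over 27 G1/S and replication genes (left) and over 30 G2/M genes (right) in each control mouse (blue) and Aldara-treated mouse (orange), numbered by replicate, with group means as lines and SDs as bars. The orange and blue points do not overlap in either panel, and Aldara replicate 5 is lowest for G2/M at 0.38 and highest for G1/S at 0.34.

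Neither inhibitor of cyclin-dependent kinases had a call of its own. Cdkn1b, which encodes p27 and holds cells in quiescence, had log2 values of 10.08, 10.11, 10.08, 10.02 and 10.14 in control mice and of 10.10, 10.03, 10.003, 10.14 and 10.05 in Aldara-treated mice. The groups overlapped throughout, at a log2 difference of -0.02 (95% interval -0.10 to 0.05), and the sign turned with the median difference set to 0 (0.02) and with the mean of its probesets (0.04). Cdkn1a encodes p21, which is induced by p53 and by other stress signals. The probeset that Cdkn1a shares with 4930567H12Rik had 8.76, 9.02, 8.91, 8.77 and 8.99 in control mice and 9.58, 9.46, 9.41, 9.46 and 9.97 in Aldara-treated mice, a log2 difference of 0.68 (standard error 0.10, adjusted p = 0.00022 from limma). Aldara replicate 5 was the highest, and the signal of this probeset cannot be assigned to either gene. Of 16 measured targets of p53, 4 were higher and 3 were lower, with a median log2 difference of 0.01. Of all probesets tested, 12.4% were higher and 21% lower. The higher targets were Sesn2, a stress sensor, at 0.21, Phlda3 at 0.16, Mdm2 at 0.15 and Ccng1 at 0.11. Among the lower, Btg2, an antiproliferative gene, fell by 0.42 and Zmat3 by 0.17 on the log2 scale, and Bbc3 had -0.14.

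Further genes of the cycle, from lists drawn up beside the members, also had a higher median for mitosis than for replication. These lists too were chosen with earlier results of these data known. The mitosis probesets were again dimmer, with a median of the mean log2 values of 6.66 against 7.99 for replication. The part of this in the difference between the lists was not tested. Of 38 other genes of mitosis 31 were higher and none lower in limma (none with an unadjusted p under 0.05), at a median log2 difference of 0.31. Among them Ncaph, a condensin subunit, had a log2 difference of 0.79 (standard error 0.06), the spindle protein Dlgap5 0.57 (standard error 0.04) and the motor Kif15 0.52 (standard error 0.03). Of 41 other genes of replication 14 were higher and none lower in limma (2 with an unadjusted p under 0.05), at a median of 0.10. The chromatin assembly factor Chaf1b had 0.58 (standard error 0.06), Pole, the catalytic subunit of polymerase epsilon, 0.56 (standard error 0.06), and Dbf4, the activator of the Cdc7 kinase, 0.43 (standard error 0.04). Of all probesets tested, 12.4% were higher and 21% lower. The 35 other regulators include Btg2, which is also counted among the p53 targets. Of these regulators 11 were higher and 6 lower, at a median of 0.02. Those with the smallest p were Rbl1, a pocket protein that restrains E2F factors, at 0.80 (standard error 0.05), the inhibitor Cdkn2c at 0.50 (standard error 0.03) and the D-cyclin partner Cdk6 at 0.61 (standard error 0.05). The number of lower genes depended on the scaling, with 11 other regulators and 3 other replication genes lower after each array had been centred on 1 common median.

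**Figure D4:**
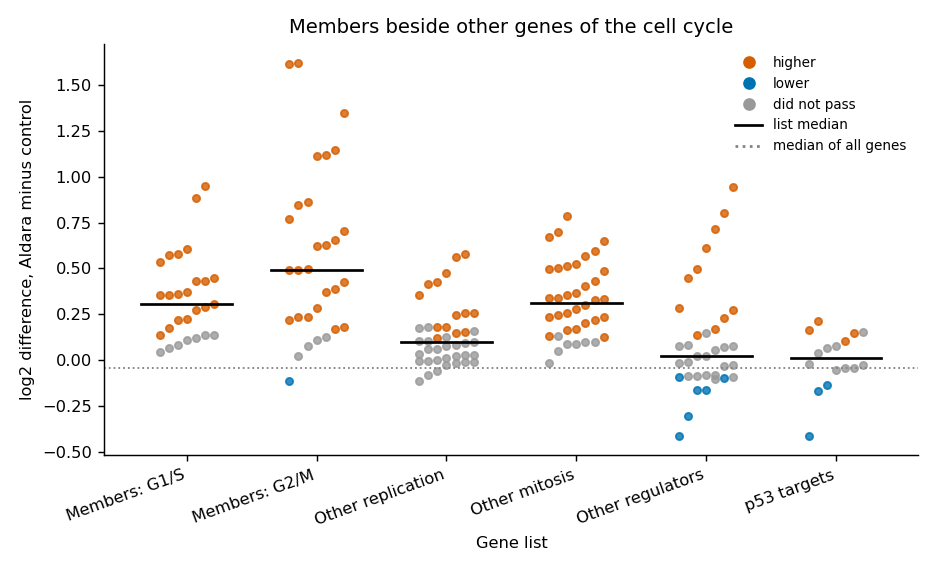
Log2 difference, Aldara minus control, of each gene (points) in the 2 member classes and in 4 further lists of cell cycle genes, coloured by call, with list medians as black lines and the median of all genes as a dotted line. Other mitosis genes have a median of 0.31 and other replication genes one of 0.10, and p53 targets lie around 0 at a median of 0.01.

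Markers of several cell types also differed between the groups. Of all probesets tested, 12.4% were higher and 21% lower. All 11 markers of monocytes and infiltrating macrophages were higher, and their mean log2 value was 6.55 to 6.60 in control mice and 8.19 to 8.47 in Aldara-treated mice. These markers include Ptprc, whose protein resident microglia also carry at intermediate levels according to the paper, so the list is not specific to infiltrating cells. Of 10 microglia markers 7 were higher and 2 lower (8.40 to 8.55 against 8.79 to 9.09), of 17 markers of natural killer and T cells 10 were higher and 1 lower (6.49 to 6.60 against 6.89 to 7.07), and of 7 endothelial markers 5 were higher and none lower, also at an unadjusted p under 0.05 (8.93 to 9.07 against 9.44 to 9.58). Of 8 astrocyte markers 3 were higher and 5 lower, and their mean log2 value was 11.03 to 11.08 in control mice and 11.11 to 11.21 in Aldara-treated mice. Among them Gfap, an intermediate filament that reactive astrocytes raise, had a log2 difference of 1.73 (standard error 0.04, adjusted p = 3.6e-11 from limma), above that of any member, while the glutamate transporter gene Slc1a2 fell by 0.57 on the log2 scale. The part of these cell types in the increase of the cell cycle genes was not tested. Of 9 markers of oligodendrocyte progenitors none was higher in limma (1 with an unadjusted p under 0.05) and 3 were lower, and the defining Pdgfra and Cspg4 had log2 differences of -0.04 and 0.01. Of 11 markers of neural progenitors and immature neurons 1 was higher, Nes, which endothelial cells and reactive astrocytes also use, and 6 were lower, among them Dcx, which fell by 0.34 on the log2 scale. None of 9 neutrophil markers passed in limma (2 with an unadjusted p under 0.05 were lower and 1 was higher), 1 of 5 B cell markers, Cd79b, was higher at a log2 difference of 0.79, and neither of 2 erythroid markers passed, also at an unadjusted p under 0.05. Of 12 neuron markers 10 were lower, and of 7 oligodendrocyte markers 2 were higher, Cldn11 at a log2 difference of 0.29 and Mag at 0.11, and 1 was lower.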

How the data were processed

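RNA from 10 perfused brains was hybridised to Affymetrix GeneChip Mouse Gene 1.0 ST arrays, with 1 array per mouse. The deposited values are on a log2 scale, and the authors obtained them with RMA, run in GeneSpring GX. This method removes a modelled background, gives all arrays 1 distribution by quantile normalisation, and combines the probes of each probeset, which can compress differences of dim probesets. The software version and library file are not given in the sources used here, and scanner files were not used.

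Of 28856 probesets, 21789 carried 1 gene symbol of the platform annotation, 1621 several and 5446 none. Tests covered all 23410 with a symbol and were made with limma 3.58.1 (lmFit and eBayes, no covariate) in R 4.3.3, with Benjamini-Hochberg adjustment over all of them and a threshold of 0.05. Where a probeset carried several symbols it was not used to name a gene. Samples were grouped by their titles. Log2 differences are Aldara minus control. A simulated comparison was also run, with a change put into only 200 of 23410 probesets. The test called 24% of 1.1-fold, 78% of 1.2-fold, 98% of 1.4-fold and 96% of 1.5-fold changes there. In the mouse data 33.4% of probesets were called, and the adjustment depends on that share. The simulated rates therefore do not give the sensitivity in the mouse data. A change near 1.1-fold can fail to pass, as for Mcm10 at 1.10-fold (adjusted p = 0.057 from limma), while Cdc45 at 1.10-fold passed. Members and gene lists were chosen with earlier results of these data known. Values on every array are given for up to 4 members of each role with the smallest adjusted p among those that passed. They are also given for Mki67, Top2a, Pcna, the D-type cyclins, Cdk1 and Cdkn1a whatever they did. The inhibitors had no member of their own that passed, so Cdkn1b is given, and Cdc25b is added as the 1 member called lower. Alternatives covered the scaling of the arrays, the probesets tested, the variance model, array weights, the methods' t-test, a block for the replicate number, a test against a 1.1-fold change, the mean of a gene's probesets and leaving out each array.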

Additional observations from a re-analysis of the deposited data

Results flagged for a closer look

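Over the 23 named members and the per-mouse medians of G1/S, of G2/M and of their difference, 2 of 52 groups of 5 values held an array far from the others, where chance flags about 1 in 20 groups. For Rrm2, control replicate 3 had a log2 value of 6.86, against 7.01 to 7.04 in the other control mice. For Cdk4, Aldara replicate 3 had 11.50, and the remaining 4 Aldara-treated mice had 11.38 to 11.41. Both genes were higher in Aldara-treated mice without the array concerned.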

How the results depend on the processing

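The number of members called higher stayed between 44 and 50, except at 35 when tested against a 1.1-fold change and at 7 among probesets at or above the median level, where 12 members were tested. Among these brighter probesets, 6 G1/S and 1 G2/M member were higher and 0 were lower, 5 other replication, 3 other mitosis and 5 other regulator genes were higher, and the G2/M median of 0.57 is the midpoint of 2 members alone, Ccnb2 at 1.12 and Anln at 0.02, so that this setting does not compare G2/M with G1/S. After centring each array on 1 common median, the G1/S median was 0.26, and 3 other replication genes and 11 other regulators were lower and 2 p53 targets higher. With the median difference set to 0, the G1/S median was 0.35, 0 members were lower and the log2 difference of Cdkn1b was 0.019. It was 0.043 with the mean of its probesets. Array weights made 1 other replication gene lower. Against a 1.1-fold change 0 members were lower (0 of G2/M), 6 other replication, 20 other mitosis, 6 other regulator and 0 p53 target genes were higher, and 1 other regulator and 1 p53 target were lower. The causes of these shifts were not tested. Leaving out 1 array at a time gave 44 to 48 higher members, 0 to 1 lower members, all of them of G2/M (0 to 1), 0 to 1 lower other replication genes, and G2/M medians that exceeded the G1/S median by 0.13 to 0.22. With the replicate number as a block, 45 members were higher and 1 was lower; the block lost Cdc45 and added Ttk. Arrays of the same number had deviations from their group means that correlated at -0.11 to 0.249. Of 10 arrays, 4 correlated best with their own number. With 5 arrays per group, this cannot tell whether arrays of the same number have more than the number in common.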
